A study of Mus musculus with 24 samples.

Results

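The 10 genes *Dazl*, *Ddx4*, *Mael*, *Sycp1*, *Sycp3*, *Asz1*, *Tex101*, *Hormad1*, *Slc25a31* and *Stk31* are germline genes, chosen by symbol as genes that mouse embryonic stem cells (mESCs) express when 2i medium has lowered the methylation of their DNA. Each of the 10 had a line among the 35022 genes counted after PD03 removal and among the 48709 genes counted after CHIRON removal. After the filter on low counts, 10 of the 13404 genes tested after PD03 removal and 9 of the 14145 genes tested after CHIRON removal were from this set. *Asz1* was below the filter after CHIRON removal.

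Total RNA of wild-type E14 mESCs, a line of strain 129, was sequenced from cells on soft and stiff StemBond hydrogels coated with fibronectin. The cells of every group were first kept for 12 h in 2i+LIF, which held 1 µM PD03, an inhibitor of MEK, and 3 µM CHIRON, an inhibitor of GSK3, beside the cytokine LIF. In 1 experiment PD03 was then removed, leaving CHIRON+LIF, and in the other CHIRON was removed, leaving PD03+LIF. RNA was taken at 2 h and 12 h, and at 0 h from control cells in 2i+LIF, so that each experiment had 6 groups of 2 replicates. None of the libraries used came from cells kept in 2i+LIF until 2 h or 12 h. In comparisons with 0 h, removal of the inhibitor and longer culture on the substrate therefore cannot be told apart. Nothing in the labels says whether replicates were separate cultures, so p-values measure the spread between these libraries, which may be technical. Libraries of PD03 removal held 16222196 to 26442153 counts and the 11 libraries used of CHIRON removal 19393787 to 31111260. The library labelled replicate 1 of stiff substrates at 2 h of CHIRON removal held 171333 counts and was left out, as it was by the study, so that this group had 1 library and was assumed to vary like the others. RNA was measured in bulk, and fewer cells with a transcript and less of it per cell cannot be told apart. DNA methylation itself was not measured in these samples.

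Many germline genes have promoters rich in CpG, the dinucleotide that DNA methyltransferases act on, and these promoters are methylated and silent in most somatic cells. In mESCs the 2i inhibitors lower the methylation of the genome, and germline genes of this kind are then transcribed at low to moderate levels. The same promoters are also held down by PRC1.6, a Polycomb complex that reaches DNA through MGA and MAX at the E-box CACGTG and through E2F6 and its partner DP1 at E2F sites.

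The promoters of the 10 genes were CpG-rich. RefSeq (build GRCm38.p6) gave 12 promoters for them, 1 for each gene and a second for *Hormad1* and for *Stk31*, each of 300 bases with 250 before the start of transcription and 50 from it on. They held 15 to 38 CpG, with a median of 24, beside a median of 7 over the 32851 promoters of the table. *Ddx4* had the most and *Sycp3* the fewest, and 65.4% of all promoters had fewer than *Sycp3*. The ratio of observed to expected CpG was 0.666 in *Sycp3* and 0.978 in *Ddx4*, the lowest and the highest of the set, beside a median of 0.384 over all promoters. The E-box CACGTG, which reads the same on both strands, stood in the promoters of 7 of the 10 genes and in 7.15% of all promoters. The E2F core GCGGGA, searched on both strands (TCCCGC on the other), stood in 6 of the 10 and in 20% of all promoters. No 2 matches overlapped. Among the 11378 promoters with at least 15 CpG the shares were 11.3% and 45.4%. Both motifs stood in the promoters of *Mael*, *Slc25a31*, *Hormad1*, *Sycp1*, *Sycp3* and *Ddx4*. *Stk31* had the E-box alone, and neither was found in these windows for *Dazl*, *Asz1* and *Tex101*. These matches describe the letters of the reference and not bound sites.

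**Figure D1:**
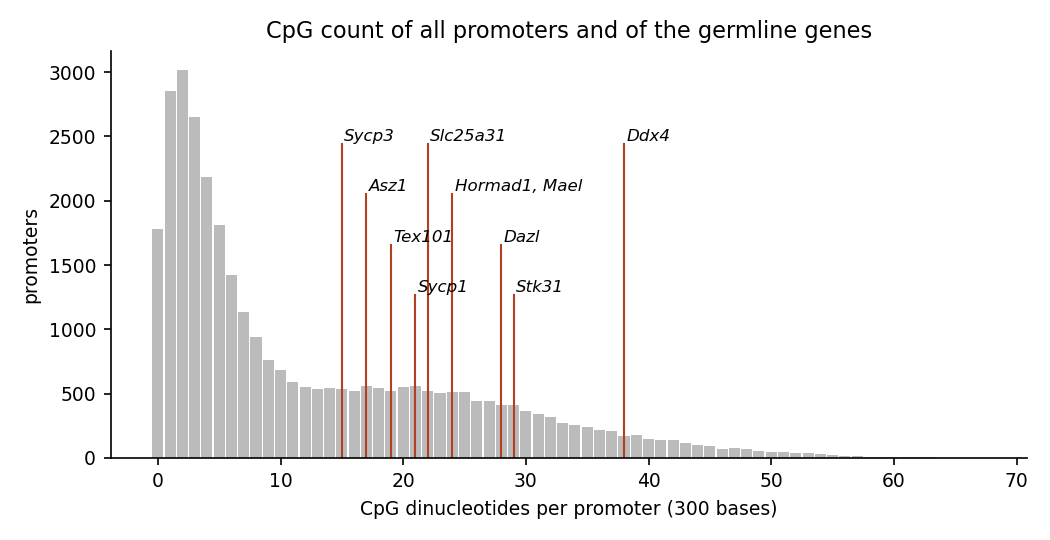
The grey bars give the number of RefSeq promoters (vertical axis) with each number of CpG in 300 bases (horizontal axis), and the red lines mark the promoter of each of the 10 genes. The lines lie between 15 and 38 CpG, above the median of 7.

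The 160 bases before the start are shown for *Dazl*, the member with the highest level, and for *Hormad1*, *Sycp3* and *Sycp1*, the meiotic members that passed a test below. All 4 are written 5′ to 3′ on the strand of the gene (RefSeq, GRCm38.p6). In *Dazl* (chr17:50293621-50293780, minus strand) capitals mark each of the 15 CpG. In *Hormad1* (chr3:95559517-95559676, plus strand), *Sycp3* (chr10:88459427-88459586, plus strand) and *Sycp1* (chr3:102936101-102936260, minus strand) capitals mark CACGTG and GCGGGA. *Hormad1* and *Sycp3* each had 2 E-boxes and 1 E2F core in this stretch, whereas *Sycp1* had 1 E-box and its E2F core followed the start.
Dazl: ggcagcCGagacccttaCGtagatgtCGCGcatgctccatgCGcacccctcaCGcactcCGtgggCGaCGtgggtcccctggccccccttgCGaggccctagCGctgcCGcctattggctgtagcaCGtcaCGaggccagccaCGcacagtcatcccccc
Hormad1: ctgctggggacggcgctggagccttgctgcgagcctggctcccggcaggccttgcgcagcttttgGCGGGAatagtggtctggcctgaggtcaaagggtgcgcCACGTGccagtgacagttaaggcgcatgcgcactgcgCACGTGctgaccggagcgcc
Sycp3: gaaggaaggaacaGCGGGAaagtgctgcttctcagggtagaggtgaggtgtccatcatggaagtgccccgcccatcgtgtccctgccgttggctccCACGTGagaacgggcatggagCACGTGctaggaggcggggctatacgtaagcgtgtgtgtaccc
Sycp1: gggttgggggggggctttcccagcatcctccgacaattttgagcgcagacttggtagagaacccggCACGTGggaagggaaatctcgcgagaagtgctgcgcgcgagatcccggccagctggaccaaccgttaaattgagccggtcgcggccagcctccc

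The 10 genes were present at very different levels. Levels were compared between genes as CPM per kb, the counts of a gene relative to the TMM-scaled counts of the protein-coding genes of its library, divided by the exon length in GENCODE M21. After PD03 removal the medians over 12 libraries were 52.1 CPM per kb for *Dazl*, 19.5 for *Hormad1* and 7.77 for *Stk31*, and the ranges of these 3 genes did not overlap. *Sycp3* (median 2.08), *Mael* (1.49), *Tex101* (0.970), *Ddx4* (0.702) and *Slc25a31* (0.440) followed, and each of these ranges overlapped the next. *Sycp1* (0.197) and *Asz1* (0.191) were lowest. After CHIRON removal *Dazl* was again highest, with a median of 9.46 CPM per kb over 11 libraries, followed by *Hormad1* with 6.98, and these ranges overlapped. *Mael* (2.44) and *Stk31* (2.36) were next and overlapped, ahead of *Sycp3* (1.28), *Ddx4* (0.951), *Sycp1* (0.272), *Slc25a31* (0.266), *Tex101* (0.227) and *Asz1* (0.0956). *Dazl* held 68.0% to 77.6% of the counts of the 10 genes in a library of PD03 removal and 48.0% to 59.2% in a library of CHIRON removal. The 7 genes below *Stk31* after PD03 removal rested on 1 to 61 counts per library in that experiment, so that small changes in them could not be detected at this depth.

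**Figure D2:**
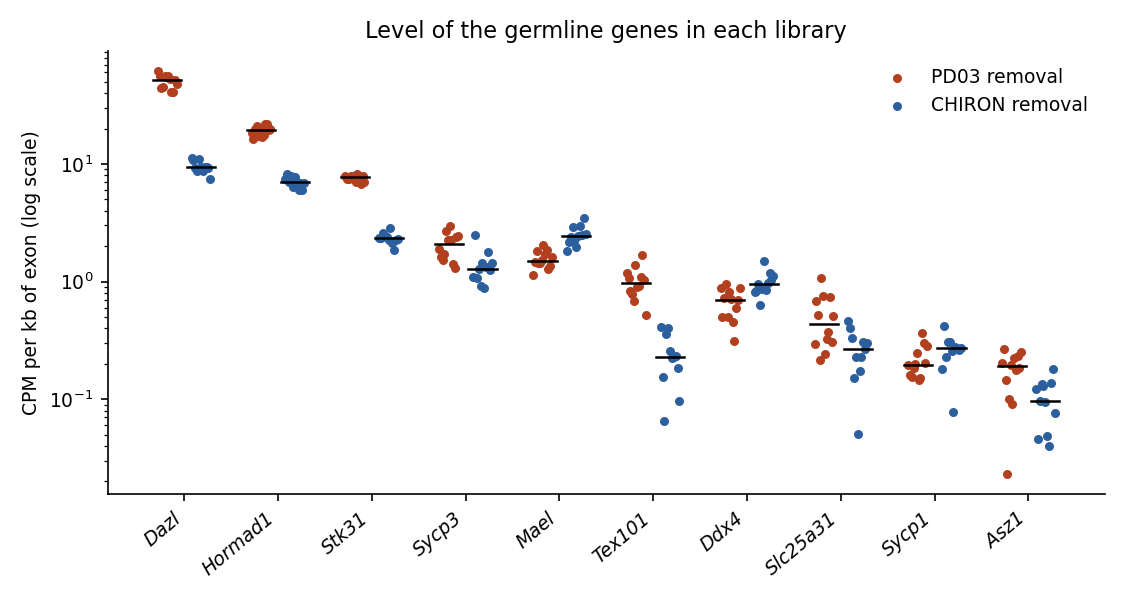
Each point is 1 library, placed by the level of the gene in CPM per kb of exon on a log axis, with red for PD03 removal, blue for CHIRON removal and black bars for medians. *Dazl* is highest in both experiments, and *Dazl*, *Hormad1*, *Stk31* and *Tex101* lie lower after CHIRON removal.

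Libraries of the same medium at 0 h differed between the experiments. The mean level of *Dazl* in the 4 controls was 216 CPM (201 to 236) before PD03 removal and 38.1 CPM (33.2 to 42.8) before CHIRON removal, a ratio of 5.67. The ratio was 4.09 for *Tex101*, which had only 2 to 14 counts per library of CHIRON removal, 3.14 for *Stk31* and 2.26 for *Hormad1*. *Mael* (0.688), *Ddx4* (0.788) and *Sycp1* (0.575) were at lower mean levels in the controls of PD03 removal, though for each of them the ranges of the controls overlapped. Of the 13073 genes tested in both experiments, 21.3% were higher by at least 1 on the log2 CPM scale before PD03 removal, among them 4 of the 9 members tested in both. A share of 0.949% was higher by at least as much as *Dazl*, and 11.9% of the genes were lower by at least 1. The median difference over these genes was 0.317 on the same scale. Of other germline genes named below, *Tex19.1* had a mean of 173 CPM and 27.9 CPM, *Tdrd12* 48.9 and 10.2, *Stag3* 67.0 and 58.9, and *Brdt* 6.84 and 15.4. They are examples, and the other germline genes were not tallied for this difference. The labels give the libraries of each experiment a code of their own, and the experiments were counted in separate tables, so that experiment, code and table cannot be told apart, and these levels were not tested.

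After PD03 removal, *Dazl*, an RNA-binding protein that binds the mRNA of germ cells and controls their translation, fell on both substrates by 12 h. *Hormad1*, which coats the unsynapsed axes of meiotic chromosomes, rose, and *Sycp3*, a protein of those axes, fell when both substrates were averaged. The other 7 members did not pass the test. The 3 members called of 10 compare with 48.9% of all genes tested (edgeR, quasi-likelihood test, p adjusted over all genes by Benjamini-Hochberg, threshold 0.05). The median log2 fold change of the 10 genes was 0.0079, beside −0.0021 over all genes tested.

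*Dazl* (chromosome 17, 50279395 to 50293636 of GRCm38, minus strand) was at 236 and 213 CPM in the soft controls of 0 h. After 2 h its soft libraries held 213 and 209 CPM, and after 12 h they held 168 and 173 CPM. In the stiff controls *Dazl* was at 214 and 201 CPM, followed by 197 and 184 CPM after 2 h and by 157 and 158 CPM after 12 h. The libraries at 12 h were below those at 0 h and 2 h on each substrate, with no overlap. The log2 fold change at 12 h was −0.40 on soft substrates (standard error 0.053, adjusted p = 1.21e-06 by edgeR) and −0.40 on stiff substrates (standard error 0.053, adjusted p = 7.59e-07 by edgeR). Averaged over substrates it was −0.40 (95% interval −0.47 to −0.32), or 0.759 times the level at 0 h. The fall was past the threshold in every one of the 18 alternatives run, with log2 fold changes of −0.43 to −0.36.

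At 2 h *Dazl* had a log2 fold change of −0.090 on soft substrates and −0.12 on stiff substrates, neither past the threshold (adjusted p = 0.541 and 0.278 by edgeR). None of the 10 members was called at 2 h, against 1.96% of all genes on soft and 2.73% on stiff substrates, and DESeq2 called none either. At an unadjusted p under 0.05 there was 1 member on each substrate, *Slc25a31* on soft and *Dazl* on stiff substrates. Of the 13404 genes tested, 1585 were under it on soft and 1776 on stiff substrates.

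*Hormad1* (chromosome 3, 95559677 to 95587671 of GRCm38, plus strand) moved the other way. Its soft controls held 31.8 and 28.3 CPM, the soft libraries of 2 h held 30.1 and 34.2 CPM, and those of 12 h held 34.6 and 36 CPM. Its stiff controls held 29.2 and 30.6 CPM, the stiff libraries of 2 h held 33.4 and 34 CPM, and those of 12 h held 37.8 and 37.7 CPM. Both libraries at 12 h were above both at 0 h on each substrate. The log2 fold change at 12 h was 0.23 on soft substrates (standard error 0.085, adjusted p = 0.0409 by edgeR) and 0.33 on stiff substrates (standard error 0.085, adjusted p = 0.0025 by edgeR), and 0.28 averaged over both (95% interval 0.16 to 0.40). On soft substrates alone the call was lost with DESeq2, without the low-count filter, and without replicate 2 at 0 h or either replicate at 12 h.

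*Sycp3* (chromosome 10, 88459569 to 88473236 of GRCm38, plus strand) rested on 20 to 58 counts per library. Its stiff controls held 3.77 and 2.85 CPM, the stiff libraries of 2 h held 3.00 and 3.09 CPM, and those of 12 h held 1.80 and 1.65 CPM and were lowest. Its soft controls held 2.41 and 2.03 CPM, the soft libraries of 2 h held 3.42 and 2.86 CPM, and those of 12 h held 1.92 and 2.15 CPM, overlapping the controls. The log2 fold change at 12 h was −0.92 on stiff substrates (standard error 0.28, adjusted p = 0.00953 by edgeR) and −0.13 on soft substrates (adjusted p = 0.774 by edgeR). The difference between these responses was 0.79 with an interval of −0.02 to 1.597 and was not past the threshold. The averaged change of −0.52 (95% interval −0.92 to −0.12) was lost with DESeq2 and without any 1 of 5 libraries, namely replicate 1 of the soft groups of 0 h and 12 h, replicate 1 on stiff substrates at 0 h and both replicates on stiff substrates at 12 h. On stiff substrates it was lost without replicate 1 at 0 h or replicate 2 at 12 h. The *Sycp3* gene overlaps *Chpt1* on the opposite strand, and whether reads were counted by strand is not given in the sources used here. Reads from any exon bases that the genes share therefore cannot be told apart, and whether their exons overlap was not examined. *Sycp1* and *Stk31* overlap pseudogenes on the opposite strand, to which the same limit applies.

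*Sycp1*, the central filament of the synaptonemal complex, had 8 and 11 counts on stiff substrates at 0 h and 18 and 13 at 12 h, against 12 and 9 and then 8 and 10 on soft substrates. The log2 fold change on stiff substrates was 1.15 (standard error 0.46, adjusted p = 0.0461 by edgeR). The call was lost with DESeq2, without the low-count filter, with all genes in place of protein-coding ones, with a replicate block and without any 1 of the 4 libraries compared. Averaged over substrates the change was 0.54 and was not past the threshold (95% interval −0.16 to 1.24). In all, 2 of 10 members were called at 12 h on soft substrates, against 29.4% of all genes, and 4 of 10 on stiff substrates, against 38.4%.

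*Stk31*, a Tudor domain protein of germ cells with a kinase-like region, had the narrowest interval of the members not called. It had 22.9 to 26.4 CPM in the 4 libraries at 0 h and 21.9 to 25.8 CPM at 12 h, with overlap on both substrates. The averaged log2 fold change was −0.03, with a 95% interval of −0.17 to 0.12. The other RNA-binding member, *Ddx4*, the VASA helicase of germ granules, had 13 to 46 counts and an averaged change of −0.04 (95% interval −0.56 to 0.49). Of the members that defend the genome against transposons, *Mael*, a factor of the piRNA pathway, had 27 to 61 counts and a change of 0.04 (−0.34 to 0.43), and *Asz1*, an ankyrin-repeat protein of germ granules, had 1 to 13 counts and a change of −0.59 (−1.55 to 0.37), which ran from −1.45 without replicate 1 on soft substrates at 12 h to −0.17 without replicate 2 on stiff substrates at 0 h. *Tex101*, a glycoprotein of the germ cell surface, changed by 0.06 (−0.47 to 0.59) and *Slc25a31*, the ADP/ATP carrier of germ cell mitochondria, by 0.25 (−0.50 to 1.00).

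**Figure D3:**
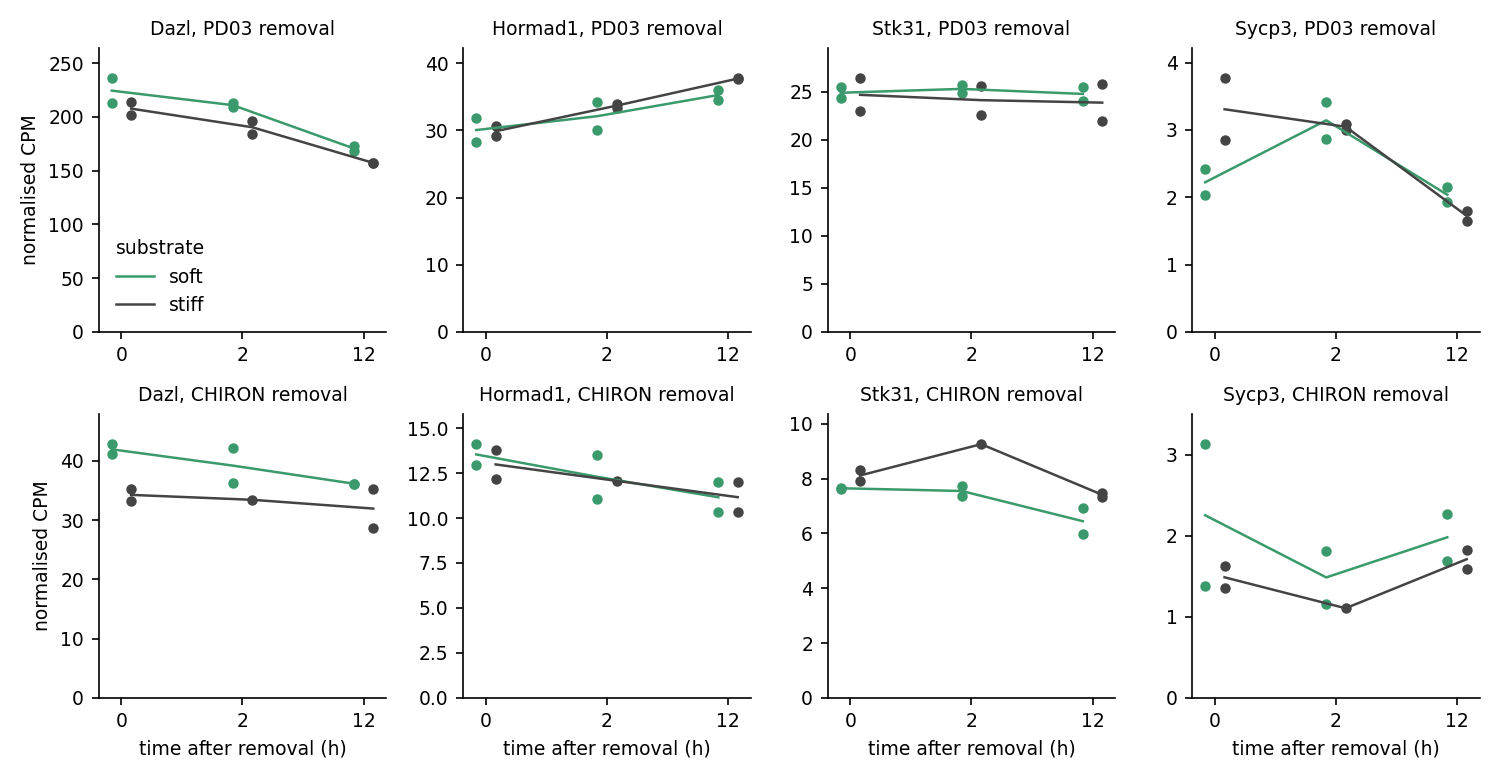
Each point is 1 library, with normalised CPM on the vertical axis from 0 and the time after removal as 3 evenly spaced steps on the horizontal axis, and lines join group means on soft (green) and stiff (dark grey) substrates. The upper row is PD03 removal, where *Dazl* falls to 157 to 173 CPM at 12 h and *Hormad1* rises to 34.6 to 37.8 CPM, and the lower row is CHIRON removal, with 1 library on stiff substrates at 2 h.

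After CHIRON removal none of the 9 members tested was called at any time on either substrate. On soft substrates the shares of all genes called were 0.184% after 2 h and 18.4% after 12 h. On stiff substrates they were 0.099% and 17.6%, and the average over substrates gave 31.8% after 12 h. DESeq2 called none of the members in these comparisons. The median log2 fold change of the 9 members at 12 h was −0.16, beside 0.0079 over all genes tested, and 7 of the 9 were negative. At an unadjusted p under 0.05 there was 1 member on soft substrates at 2 h (*Slc25a31*) and 1 in the averaged comparison (*Hormad1*). Of the 14145 genes tested, 1275 and 5829 were under it in these comparisons. On stiff substrates at 2 h, with 1 library, the log2 fold change of *Sycp1* was −1.75.

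The soft controls of *Dazl* held 42.8 and 41.1 CPM, the soft libraries of 2 h held 42.1 and 36.3 CPM, and those of 12 h held 36.1 and 36.2 CPM. Its stiff controls held 35.3 and 33.2 CPM, the 1 stiff library of 2 h held 33.4 CPM, and those of 12 h held 35.3 and 28.6 CPM. The groups at 0 h and 12 h did not overlap on soft substrates and did overlap on stiff substrates. The averaged log2 fold change was −0.16 with a 95% interval of −0.32 to 0.01 (adjusted p = 0.136 by edgeR), and it passed the threshold without replicate 1 on stiff substrates at 12 h (−0.24, adjusted p = 0.0387 by edgeR). *Hormad1* had 12.17 to 14.1 CPM at 0 h and 10.3 to 12.0 CPM at 12 h, where all 4 libraries were below the controls. Its averaged change was −0.25 with a 95% interval of −0.48 to −0.03 (adjusted p = 0.0782 by edgeR), and it passed the threshold without replicate 2 on soft substrates at 12 h (−0.32, adjusted p = 0.0489 by edgeR). Its direction was thus opposite to that after PD03 removal, and the difference between the experiments was not tested.

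*Stk31* had 7.63 to 8.33 CPM at 0 h and 5.96 to 7.48 CPM at 12 h, without overlap, and an averaged change of −0.18 that was not past the threshold (95% interval −0.42 to 0.06). *Ddx4* (35 to 85 counts, change 0.40, interval −0.05 to 0.86) and *Mael* (63 to 137 counts, change 0.33, interval −0.01 to 0.68) were the 2 members with positive estimates. *Sycp3* changed by −0.01 (−0.62 to 0.60) and *Sycp1* by −0.07 (−0.80 to 0.65). *Tex101*, with 2 to 14 counts, changed by −0.42 (−1.60 to 0.76) and *Slc25a31*, with 2 to 20, by −0.24 (−1.14 to 0.66). *Asz1* had 3 to 10 counts in each library and was not tested.

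**Figure D4:**
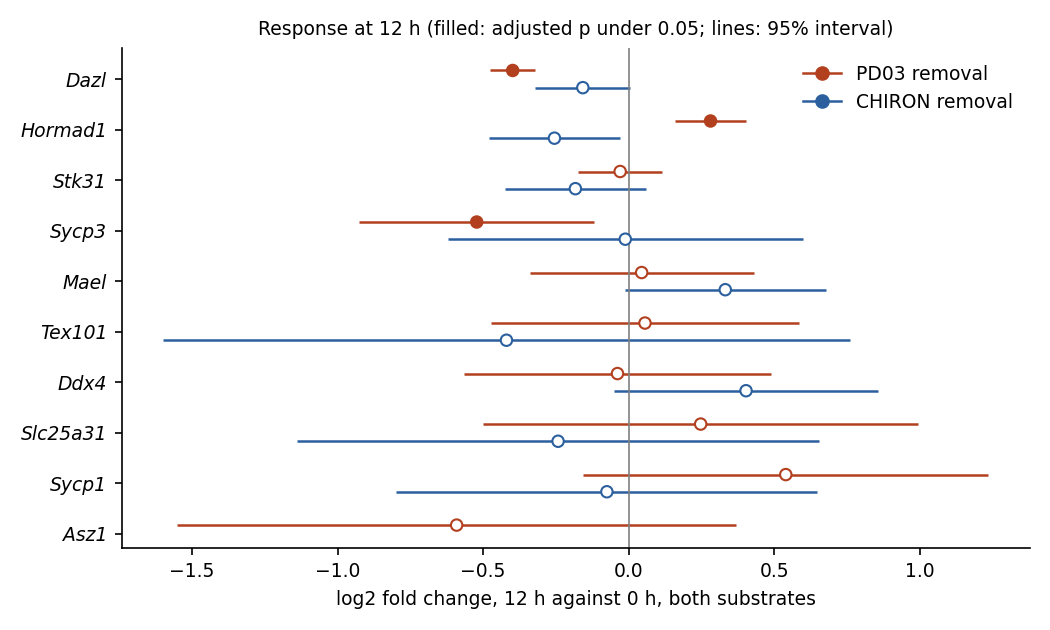
Points give the log2 fold change at 12 h against 0 h averaged over substrates, lines its 95% interval and filled points an adjusted p under 0.05, in red for PD03 removal and blue for CHIRON removal. *Dazl*, *Sycp3* and *Hormad1* are filled after PD03 removal, and no member is filled after CHIRON removal.

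Soft and stiff substrates were compared next. Averaged over times after PD03 removal, *Dazl* was higher on soft substrates by 0.13 on the log2 scale (standard error 0.031, adjusted p = 0.0226 by edgeR), or 1.09 times, the 1 member called of 10, against 1.89% of all genes tested. The soft libraries were above the stiff ones at 2 h and at 12 h, whereas at 0 h the ranges overlapped, with 213 CPM in a soft and 214 CPM in a stiff library. The call was lost without any 1 of 7 of the 12 libraries, namely replicate 1 of the soft groups of 0 h and 2 h, replicate 2 of the soft group of 12 h, replicate 2 of the stiff groups of 0 h and 2 h and both replicates on stiff substrates at 12 h. At single times the difference was 0.11 at 0 h, 0.15 at 2 h and 0.12 at 12 h, and no member was called at any of them, against 0.0298%, 0.134% and 0.776% of all genes. DESeq2 also called none at single times. The numbers of members at an unadjusted p under 0.05 were 3, 2 and 3. Of the 13404 genes tested, 970, 1150 and 1295 were under it at these times. The response of *Dazl* at 12 h differed between substrates by 0.0049, with a 95% interval of −0.15 to 0.16. No member, and 0% of all genes, was called for a difference in response, by edgeR or for the members by DESeq2. *Tex101* was the 1 member at an unadjusted p under 0.05, beside 899 of the 13404 genes tested.

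After CHIRON removal *Dazl* was also at higher values on soft substrates, by 0.29 at 0 h, 0.23 at 2 h and 0.18 at 12 h on the log2 scale. Averaged over times the difference was 0.23 (95% interval 0.09 to 0.38, unadjusted p = 0.00339 and adjusted p = 0.666 by edgeR), which did not pass the threshold in any of the 17 alternatives. In this experiment 0% of all genes were called between substrates at 0 h, 0% at 2 h, 0% at 12 h, 0% averaged over times and 0% for the difference in response at 12 h. No member was called in these comparisons by edgeR or DESeq2. At an unadjusted p under 0.05 there was 1 member at 0 h (*Dazl*), 0 at 12 h, 1 averaged over times (*Dazl*) and 0 for the response. Of the 14145 genes tested, 494, 464, 979 and 419 were under it in these comparisons. At 2 h, with 1 stiff library, *Sycp1* was higher on soft substrates by 1.83.

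Most pairs of members were not positively correlated across libraries. After PD03 removal 17 of the 45 pairs of members had a positive Pearson correlation of log2 CPM over the 12 libraries, with a median of −0.09. The lowest was −0.83 between *Dazl* and *Hormad1* and the highest 0.72 between *Sycp1* and *Hormad1*. After CHIRON removal 15 of 36 pairs were positive over the 11 libraries, with a median of −0.08. The mean z score of the 9 members tested in both experiments, scaled within each experiment, was compared with 13064 other genes over 23 libraries. The genes most like it were *Ccdc126* (r = 0.68), *Emc1* (0.66), *Crlf3* (0.64), *Pop7* (0.61) and *Fst* (0.60). They are the highest of 13064 values, among which high correlations can arise between unrelated genes, and they were not tested. The members themselves correlated with this score at −0.18 (*Mael*) to 0.56 (*Sycp1*). These correlations are a description, since the libraries share times and substrates. Most members rested on few counts, and counting error pulls correlations toward 0, so that shared variation among those members could be missed.

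Other germline genes changed in both directions at 12 h. Of 45 other germline genes in 3 lists, 34 were tested after PD03 removal, and 5 rose and 8 fell, a share of 38.2% called beside 48.9% of all genes. After CHIRON removal 35 were tested, and 4 rose and 11 fell, a share of 42.9% beside 31.8% of all genes. Their median log2 fold changes were 0.08 and −0.19.

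Of the genes of piRNA and transposon defence, 3 of 12 tested rose and 3 fell after PD03 removal (50% called, beside 48.9% of all genes). After CHIRON removal 1 of 13 rose and 4 fell (38.5%, beside 31.8%). *Piwil2*, a PIWI protein that binds piRNAs, rose by 0.86 after PD03 removal and fell by 0.68 after CHIRON removal, where the call was lost in 9 of 18 alternatives. *Fkbp6*, a co-chaperone of piRNA loading, rose by 0.19 and fell by 0.45. *Tex19.1*, a mammalian germline gene that restrains retrotransposons, fell by 0.16 and rose by 0.45. *Tdrd12*, a Tudor domain helicase, fell by 0.13 after PD03 removal, where the call was lost in 11 of 18 alternatives, and fell by 0.60 after CHIRON removal.

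Of the genes of meiosis, 2 of 14 tested rose and 3 fell after PD03 removal (35.7% called, beside 48.9% of all genes). After CHIRON removal 2 of 14 rose and 4 fell (42.9%, beside 31.8%). *Stag3*, a cohesin subunit of meiosis, went from a mean of 67.0 to 103 CPM after PD03 removal, a rise of 0.62 on the log2 scale, and fell by 0.65 after CHIRON removal, from 58.9 to 37.6 CPM. *Stra8*, which starts the meiotic programme in response to retinoic acid, fell by 0.30 after PD03 removal and rose by 1.41 after CHIRON removal, from 6.97 to 18.6 CPM. *Tex15*, needed for recombination and for silencing of transposons, had a change of 0.01 after PD03 removal (adjusted p = 0.895 by edgeR) and fell by 1.40 after CHIRON removal, from 24.2 to 9.01 CPM. *Hormad2*, the relative of *Hormad1*, rose by 0.60 after PD03 removal and had a change of 0.24 after CHIRON removal that was not past the threshold. Of the germ cell regulators, 2 of 8 tested fell after PD03 removal (25% called, beside 48.9%), and these calls were lost with DESeq2. After CHIRON removal 1 of 8 rose and 3 fell (50%, beside 31.8%). *Brdt*, a bromodomain protein of spermatogenesis, fell by 1.51, *Nanos3* and *Dmrt1* fell by 1.07 and 0.56, and *Dnd1*, an RNA-binding protein of primordial germ cells, rose by 1.23. The difference between the experiments was not tested for these genes.

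A list of 18 genes of known repressors of germline genes held genes of PRC1.6 and of H3K9 methylation and *Kdm5c*. Of these, 5 rose and 4 fell after PD03 removal (50% called, beside 48.9% of all genes tested). After CHIRON removal 6 rose and 2 fell (44.4%, beside 31.8%). *Ehmt2*, an H3K9 methyltransferase, rose by 0.35 in both experiments. *Wdr5* fell by 0.30 and rose by 0.22, *Hdac2* fell by 0.26 and rose by 0.20, and *Tfdp1*, the partner of E2F factors, rose by 0.18 and fell by 0.40. Of 10 genes of DNA methylation and its removal, 6 rose and 2 fell after PD03 removal (80% called, beside the same 48.9%), and 5 rose and 2 fell after CHIRON removal (70%, beside 31.8%). *Dnmt3l*, the cofactor of the de novo methyltransferases, rose by 0.83 after PD03 removal, with *Dnmt3b* (0.45) and *Dnmt3a* (0.33). *Prdm14*, a known repressor of these genes, fell by 0.55, and a link between these changes was not tested. After CHIRON removal *Dnmt3a* rose by 0.59 and *Prdm14* by 0.33, *Dnmt3b* fell by 0.25, a call lost in 5 of 18 alternatives, and *Dnmt3l* had a change of −0.12 that was not past the threshold.

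**Figure D5:**
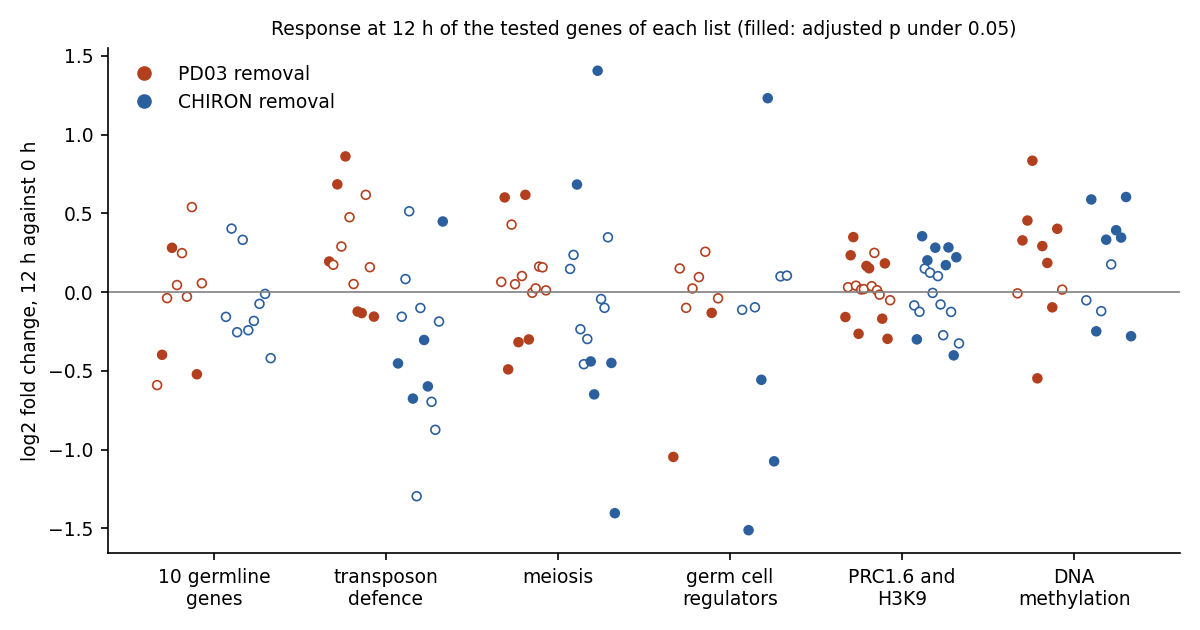
Each point is 1 tested gene of a list, placed by its log2 fold change at 12 h against 0 h averaged over substrates, in red for PD03 removal and blue for CHIRON removal, with filled points for an adjusted p under 0.05. The tested genes of the 3 other germline lists spread to both sides of 0, down to −1.51 (*Brdt*) and up to 1.41 (*Stra8*) after CHIRON removal.

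Markers of other cell types were low beside those of mESCs, though not beside most of the 10 germline genes. The 7 markers of mESCs summed to 6844 to 6996 CPM at 0 h and 5600 to 5997 CPM at 12 h after PD03 removal. After CHIRON removal they summed to 5171 to 5409 and 5182 to 5467 CPM. At 12 h after PD03 removal 5 of the 7 fell (71.4% called, beside 48.9% of all genes tested). In the CHIRON experiment 4 rose and 3 fell (100%, beside 31.8%). Genes of late spermatids had at most 4 counts in a library of PD03 removal, with *Prm1* and *Acrv1* at 0 throughout, and at most 7 counts in a library of CHIRON removal, with *Tnp1* at 0 throughout. The 6 primitive endoderm markers summed to 2.28 to 5.22 CPM after PD03 removal and 4.87 to 8.39 CPM after CHIRON removal. Of the 2 endoderm markers tested in the former *Gata6* rose, by 1.22, and none of the 4 tested in the latter was called. The 5 fibroblast markers summed to 8.61 to 12.17 CPM after PD03 removal. *Thy1*, the 1 called of 3 tested, was higher by 1.21 at 12 h, a call lost without replicate 1 on stiff substrates at 12 h (0.94). In the CHIRON experiment the fibroblast markers summed to 17.0 to 19.0 CPM at 0 h, to 20.7 to 27.0 CPM at 2 h, above every control, and to 12.9 to 15.3 CPM at 12 h. *Pdgfrb*, the 1 called of 4 tested, was lower by 0.59 at 12 h. The part of these levels in the changes of the germline genes was not tested.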

How the data were processed

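RNA counts of 24 libraries of E14 mESCs were used, 12 per experiment. The authors trimmed reads with Trim Galore, aligned them to GRCm38 (mm10) with TopHat2 2.1.0 and counted them per gene with featureCounts 1.5.0, and the deposited counts were not normalised. Whether reads were counted by strand is not given in the sources used here. In the table of PD03 removal 12 columns of other samples were not used, 23 lines without a gene name were left out, and gene symbols were matched through the symbols and identifiers of the other table and GENCODE M21.

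The 19285 and 21695 matched protein-coding genes were filtered (CPM equal to 10 counts in the median library, reached in 2 libraries, and a total of 15), scaled by TMM and fitted with the quasi-likelihood model of edgeR 4.0.16 (R 4.3.3) with all 6 groups of an experiment and the threshold 0.05 on p-values adjusted by Benjamini-Hochberg. The study's methods name DESeq2, run here in version 1.42.0 as an alternative. Standard errors are the log2 fold change divided by the square root of F. Other alternatives were TMM replaced by DESeq2 size factors, genes kept whatever their counts, genes of every biotype, a fit to the compared groups alone, a replicate block, leaving out each library and adding the left-out one. Depth, 16222196 counts or more in every library used, limits the precision of genes with few counts, and intervals of counts cover counting error only. The procedure was tested on simulated counts in which 200 genes changed by 1 on the log2 scale at 12 h on soft substrates. It recovered 158 of them with 5 false calls for PD03 removal, and 147 with 12 false calls for CHIRON removal. Changes of this size were thus missed for some genes in the simulation. All other genes were simulated with equal means in every group. In the data 29.4% and 18.4% of genes were called in this comparison, so that recovery and false calls there may differ. Same-numbered libraries did not deviate together. The named genes were the 10 members and, of each other list, up to 4 genes with the smallest adjusted p at 12 h averaged over substrates and markers at 0. The members and lists were chosen with earlier results of these data known. Figures were drawn with matplotlib 3.10.9.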

Additional observations from a re-analysis of the deposited data

Results flagged for a closer look

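The library left out of CHIRON removal (stiff substrates, 2 h, replicate 1), with 171333 counts in all, stood above the controls for 2 of the 10 members. *Sycp1* had 5 counts there, or 51.5 CPM (95% Poisson interval 16.7 to 120.2), and at most 1.501 CPM in a control library at 0 h. *Slc25a31* had 2 counts, or 20.6 CPM (2.49 to 74.4), and at most 0.982 CPM in a control. *Dazl* had 9 counts and *Ddx4* 1, with intervals that reached down to 42.4 and 0.261 CPM, below their highest controls, and the other 6 members had 0 counts, which allows up to 38.0 CPM by the same interval. Protein-coding genes held 97111 counts there, or 56.7% of its counts, beside 73.1% to 85.3% in the libraries used. A single count thus stood at 10.3 CPM, so that few counts place a gene with low controls above them. How many of all genes stood above their controls in this library was not counted. The intervals cover counting error only, and this library enters the results as an alternative alone.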

How the results depend on the processing

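The number of members called at 12 h on soft substrates after PD03 removal was 2, and 1 with DESeq2 and 1 without the low-count filter. With each library left out in turn it was 1 to 2, on stiff substrates 2 to 4, averaged over substrates 2 to 3 and between substrates averaged over times 0 to 1, and after CHIRON removal 0 to 1 at 12 h averaged over substrates. The libraries that decided these counts for *Dazl*, *Hormad1*, *Sycp1* and *Sycp3* are named with each result. Among the alternatives of the counts of members, 342 values stayed within 1.5 times the main count and 15 did not. This tally does not measure how firm the calls are. The main count was 0 in most comparisons and could not lose a call there, and a loss from 4 to 3 also lay within 1.5 times. The replicate block could be fitted although same-numbered libraries did not pair (correlations of −0.114 to 0.113). It left 3 members called on stiff substrates at 12 h after PD03 removal, where *Sycp1* was lost, 2 on soft substrates and 3 averaged, and no other count moved. It turned the uncalled averaged change of *Sycp3* after CHIRON removal from −0.011 to 0.033. Without single libraries the sign of other uncalled changes turned too. The ranges after PD03 removal were −0.30 to 0.20 for *Ddx4*, −0.11 to 0.16 for *Mael*, −0.11 to 0.21 for *Tex101*, −0.12 to 0.60 for *Slc25a31*, −0.092 to 0.028 for *Stk31* and, on soft substrates, −0.24 to 0.0096 for *Sycp3*. After CHIRON removal they were −0.31 to 0.30 for *Sycp1*, −0.24 to 0.35 for *Sycp3*, −0.79 to 0.40 for *Tex101* and −0.47 to 0.084 for *Slc25a31*. The cause of these turns was not tested. Among the other lists, the 2 germ cell regulators that fell after PD03 removal were 0 with DESeq2, 0 with all genes and 0 to 1 without any 1 of 7 libraries (both soft and both stiff replicates at 0 h, both soft replicates and replicate 1 on stiff substrates at 12 h). The 2 genes of DNA methylation that fell were 1 with all genes and 1 without replicate 1 of the soft groups of 0 h or 12 h or either stiff replicate at 12 h, and the 3 genes of transposon defence that fell were 1 without replicate 1 at 0 h or replicate 2 at 12 h on soft substrates or replicate 2 at 12 h on stiff substrates. With the left-out library added, the calls of *Piwil2*, *Tdrd12*, *Tex19.1*, *Nanos3*, *Tfdp1*, *Hdac2*, *Wdr5*, *Ehmt2*, *Dnmt3b*, *Prdm14* and the 7 mESC markers after CHIRON removal were lost. Few counts limit the members below *Stk31*, and 2 replicates limit all of them.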
